A study of Mus musculus with 16 samples.

Results

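*Fbp1*, *Rbp4*, *Anxa8*, *Il33* and *Il22* are 5 genes whose mRNA was higher in *Irf1*-/- than in wild-type bone marrow-derived dendritic cells (BMDCs) after treatment with c-di-GMP, a bacterial cyclic dinucleotide that activates STING. They were chosen by their FPKM in these 2 conditions, from a table of 23356 genes. RNA-seq had been carried out on BMDCs of C57BL/6 background from wild-type mice and from whole-body *Irf1*-/-, *Irf3/7*-/- and *Tmem173*-/- mice (*Tmem173* encodes STING). The bone marrow cells of all groups had been grown for 6 days with GM-CSF and IL-4, and were left untreated or given 25 µg/ml c-di-GMP for 18 h according to the sample labels. The legends of the study give another dose. There are 16 samples, a pair per condition and 8 conditions, and the labels do not say whether the 2 of a pair came from separate mice. The mice were sex-matched young adults, and knockout and wild-type mice are not said to have been littermates.

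The authors had combined the 2 samples of each condition, so each gene has 1 FPKM per condition, which is a fragment count scaled by transcript length and sequencing yield, and a confidence interval from Cuffdiff. There is therefore no spread between replicates, no p-value and no depth per sample. A gene was tested in a comparison when it had at least 1 FPKM in either condition. It was called higher or lower when it differed more than 2-fold and the intervals did not overlap. Log2 differences are of FPKM + 0.1, and ratios are of FPKM. Among 4710 genes that reached 10 FPKM in all 8 conditions, the interval reached 25.2% to 25.7% to either side of the FPKM in the median.

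The 5 genes have little in common in function. *Fbp1* encodes fructose-1,6-bisphosphatase, a controlling enzyme of gluconeogenesis that is best known from liver and kidney and opposes phosphofructokinase. *Rbp4* encodes the retinol-binding protein that carries vitamin A in blood, mostly from liver and fat. *Anxa8* encodes an annexin, a protein that binds membranes when calcium is present. *Il33* encodes an IL-1 family cytokine kept in the nucleus and released on cell damage, which acts on basophils, mast cells, T helper type 2 cells and group 2 innate lymphoid cells through the receptor encoded by *Il1rl1*. *Il22* encodes a cytokine of the IL-10 family that is made mainly by T cells and innate lymphoid cells and acts on epithelium. IRF1 is a transcription factor induced by interferons that binds the interferon-stimulated response element.

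All 5 genes had a promoter in RefSeq (GRCm38.p6), with 2 starts each for *Rbp4* and *Il33* and so 7 windows of 250 bases before a start. 1 window each is shown for 4 of the genes, to let the sequence next to their starts be compared. The shown windows hold no annotated exon of their gene, whereas that of *Il22* overlaps its annotated locus. Capitals mark matches to any of the 7 motifs searched.
Fbp1, chr13:62888283-62888532, minus strand: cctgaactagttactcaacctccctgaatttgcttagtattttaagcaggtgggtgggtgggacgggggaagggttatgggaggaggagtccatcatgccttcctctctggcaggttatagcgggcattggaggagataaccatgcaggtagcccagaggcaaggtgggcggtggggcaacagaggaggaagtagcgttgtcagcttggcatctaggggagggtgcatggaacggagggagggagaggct
Rbp4, upstream start, chr19:38125322-38125571, minus strand: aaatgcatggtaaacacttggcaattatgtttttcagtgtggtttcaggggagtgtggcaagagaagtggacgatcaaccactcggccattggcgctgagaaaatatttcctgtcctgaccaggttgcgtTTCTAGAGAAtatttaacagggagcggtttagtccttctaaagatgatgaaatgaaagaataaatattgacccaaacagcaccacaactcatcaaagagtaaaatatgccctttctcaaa
Anxa8, chr14:34085729-34085978, plus strand: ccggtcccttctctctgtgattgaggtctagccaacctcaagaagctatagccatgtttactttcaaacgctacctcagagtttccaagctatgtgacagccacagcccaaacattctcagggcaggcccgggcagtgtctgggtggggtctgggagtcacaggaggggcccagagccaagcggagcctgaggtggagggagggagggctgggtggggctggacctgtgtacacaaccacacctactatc
Il33, upstream start, chr19:29924863-29925112, plus strand: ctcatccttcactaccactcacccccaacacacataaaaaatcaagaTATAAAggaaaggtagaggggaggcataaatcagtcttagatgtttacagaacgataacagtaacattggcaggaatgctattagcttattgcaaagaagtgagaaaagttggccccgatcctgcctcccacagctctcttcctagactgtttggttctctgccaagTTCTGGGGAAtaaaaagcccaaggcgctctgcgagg
The motifs were searched on both strands, with N and the spacing standing for any base. The core of the interferon-stimulated response element, 2 copies of GAAA with 2 bases between them, was in 0 of the 7 windows and in 2.98% of all 32851 promoter windows. A STAT motif, TTCNNNGAA, was in 0 of the 7 and in 7.02% of all windows. The spacing preferred by STAT6, the factor that IL-4 activates, TTC and GAA with 4 bases between them, was in 2 of the 7 and in 5.85% of all windows. Those 2 are TTCTAGAGAA, from 120 to 111 bases before the upstream *Rbp4* start, and TTCTGGGGAA, from 36 to 27 bases before the upstream *Il33* start. A TATA box, TATAAA, was in 4 of the 7 and in 12.4% of all windows, among them 1 beginning 28 bases before the downstream *Rbp4* start and 1 beginning 29 bases before the downstream *Il33* start. The AP-1 motif TGANTCA (6.75% of all windows), the NF-kB motif of GGGA and CC with 4 bases between them (17.6%) and the AHR motif GCGTG (28.2%) were each in 1 of the 7, before the downstream *Rbp4* start. The windows of *Fbp1* and *Anxa8* held none of the 7 motifs, and that of *Il22* held a TATA box 170 bases before its start.

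The targeted genes were read first. *Irf1* was at 25.9 FPKM in untreated and 116 FPKM in treated *Irf1*-/- BMDCs, below the 149 and 245 FPKM of wild-type BMDCs, and was called lower in both states. *Tmem173* was at 8.97 and 7.49 FPKM in *Tmem173*-/- BMDCs, against 77.0 to 118 FPKM in the other conditions. In the BMDCs labelled *Irf3/7*-/-, *Irf7* was at 1.07 and 4.97 FPKM, against 15.2 and 687 FPKM in wild type. *Irf3* was lower there when untreated, at 7.74 FPKM, but at 20.2 FPKM (interval 14.8 to 25.7) when treated, against 15.8 FPKM (11.6 to 20.0) in treated wild type. That level goes against the label, so these cells are called the BMDCs labelled *Irf3/7*-/- throughout. A whole-gene FPKM also counts reads from parts of a gene that were not deleted.

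Levels of cell type markers also differed between genotypes. All 11 dendritic cell markers were at 1 FPKM or more in all 8 conditions, with a summed level of 5169 to 9504 FPKM. The 2 MHC class II genes *H2-Ab1* and *H2-Aa* were lower in *Irf1*-/- BMDCs, at 278 and 364 FPKM untreated, against 650 and 1031 FPKM in wild type. The 11 T cell markers summed to 84.2 and 62.7 FPKM in untreated and treated wild type, to 10.5 and 16 FPKM in *Irf1*-/-, to 6.06 and 5.26 FPKM in *Tmem173*-/-, and to 115 and 200 FPKM in the BMDCs labelled *Irf3/7*-/-. The 12 markers of innate lymphoid and NK cells summed to 848 and 803 FPKM in wild type and 102 and 136 FPKM in *Irf1*-/- BMDCs. *Gzma* (349 and 329 FPKM) and *Gzmb* (321 and 336 FPKM) made up most of the wild-type sums. *Il7r* and *Thy1* made up most of the *Irf1*-/- sums and were not called. Of these markers, 8 of 10 tested untreated and 7 of 9 tested treated were lower in *Irf1*-/- (3.52% and 4.91% over all tested genes). The 10 macrophage markers summed to 244 and 353 FPKM in wild type and 145 and 124 FPKM in *Irf1*-/- BMDCs, and the 9 neutrophil markers to 4092 and 1914 against 2583 and 1431 FPKM. *S100a8* and *S100a9* made up most of the neutrophil sums and were not called. Of the 9, 3 were higher in treated *Irf1*-/- than in wild-type BMDCs (*Mpo*, *Cxcr2* and *Retnlg*) and 3 were lower. Over all tested genes, 2.65% were higher and 4.91% lower there. Untreated, 1 was higher (*Mpo*, at 24.7 against 3.70 FPKM) and 1 was lower, where 1.26% and 3.52% of all tested genes were. In *Tmem173*-/- BMDCs the neutrophil sum was 20047 and 14564 FPKM. The 11 basophil and mast cell markers summed to 67.6 FPKM in untreated and 139 FPKM in treated *Irf1*-/- BMDCs, against 75.1 and 164 FPKM in wild type. *Hdc* was at 43.2 and 79.1 FPKM of the treated sums. Of 9 basophil and mast cell markers tested after treatment, *Kit* and *Cma1* were higher in *Irf1*-/- (2.65% over all tested genes) and 0 were lower (4.91%). Their median log2 difference was 0.52, against 0.02 over all tested genes. Of the 8 B cell markers, 1 or 2 reached 1 FPKM in wild-type and *Irf1*-/- BMDCs, with sums of 3.85 to 6.10 FPKM. Of the 13 stromal, epithelial and endothelial markers, 2 or 3 reached 1 FPKM in any condition, led by *Cdh1* and *Pecam1*. In such mixed cultures, fewer cells of a type and less RNA per cell cannot be told apart, and the part that these differences have in the results below was not tested.

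**Figure D1:**
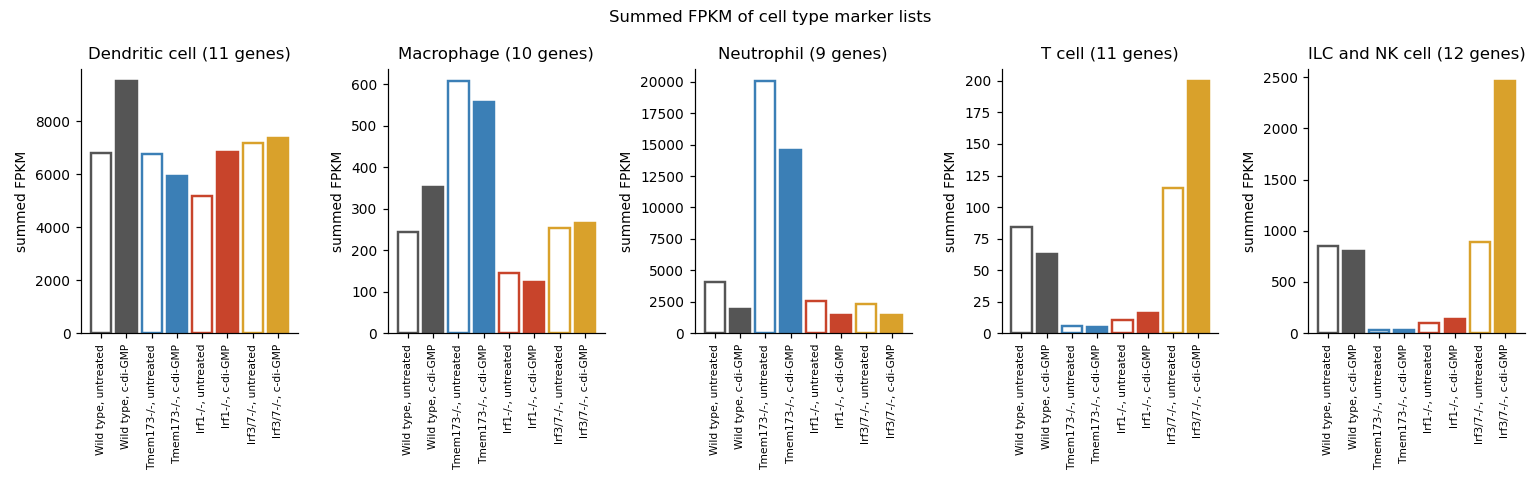
Summed FPKM (vertical axis, from 0) of 5 lists of cell type markers in the 8 conditions, with open bars for untreated and filled bars for c-di-GMP and no error bars. The T cell sum was 10.5 and 16 FPKM in *Irf1*-/- BMDCs, below the 84.2 and 62.7 FPKM of wild type and the 115 and 200 FPKM of the BMDCs labelled *Irf3/7*-/-.

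In the comparison that chose them, all 5 genes were higher in treated *Irf1*-/- than in treated wild-type BMDCs, where 294 of 11079 tested genes (2.65%) were called higher. *Fbp1* was at 27.9 against 0.524 FPKM, a ratio of 53.3. *Anxa8* was at 20.2 against 0.854 FPKM (ratio 23.6), and *Rbp4* at 131 against 5.92 FPKM (22.1). *Il22* was at 3.50 against 0.317 FPKM (11.1), and *Il33* at 67.8 against 21.6 FPKM (3.14). By log2 difference, *Fbp1*, *Rbp4* and *Anxa8* ranked 1, 3 and 4 among the 294, *Il22* ranked 12 and *Il33* ranked 113. These values were used for the choice and are given as a description. With treatment, *Fbp1* and *Anxa8* had fallen in wild-type BMDCs, and *Anxa8* had also fallen in *Irf1*-/- BMDCs. *Rbp4*, *Il33* and *Il22* were at higher FPKM with c-di-GMP in both genotypes. How much of each difference was already there without treatment is given below. Of the 294 genes, 123 fell and 32 rose on treatment of wild-type cells, where 9.96% of all tested genes fell and 10.5% rose. The 294 were called against treated wild type, so an excess of falls in wild type is partly built in.

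**Figure D2:**
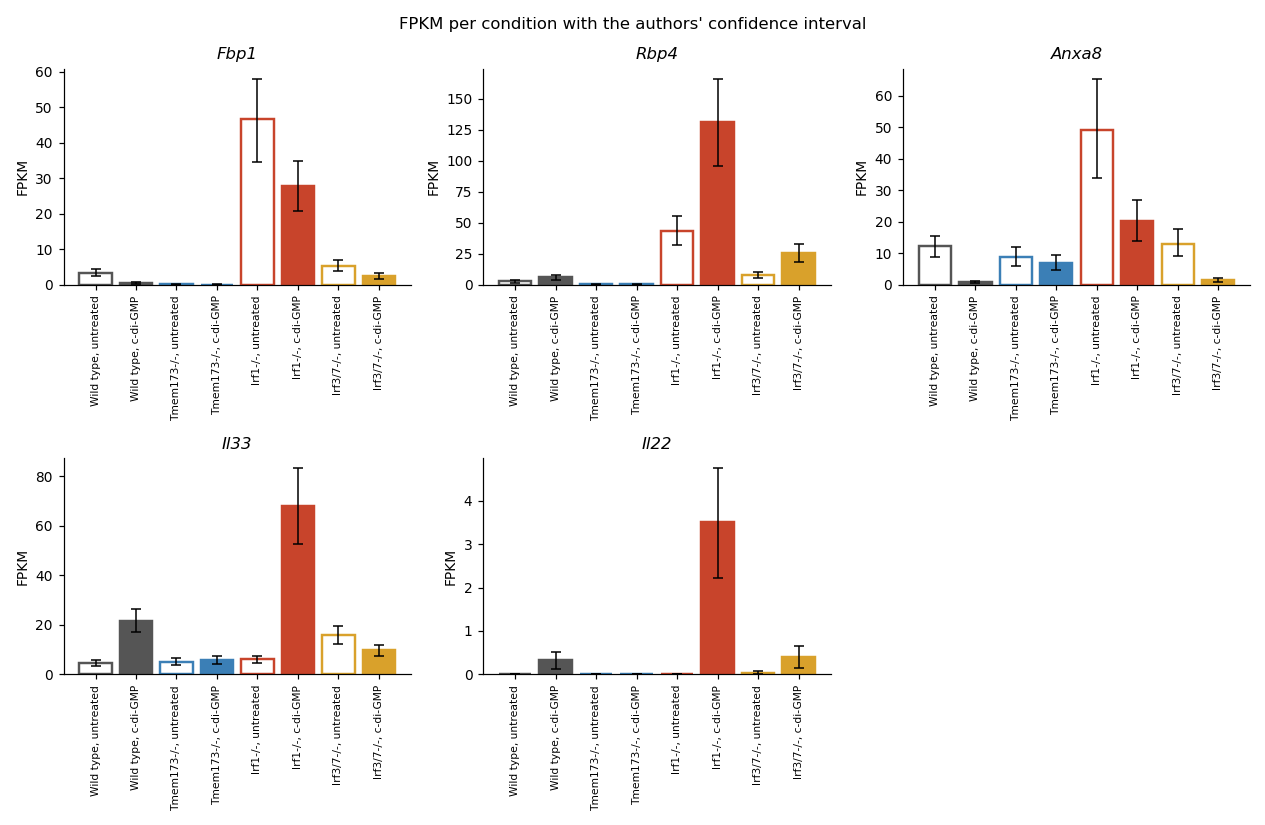
FPKM (vertical axis, from 0, a different scale in each panel) of the 5 genes in the 8 conditions. Bars are the authors' value of 2 combined samples, error bars the authors' confidence interval, open bars untreated and filled bars c-di-GMP. *Fbp1* and *Anxa8* were highest in untreated *Irf1*-/- BMDCs (46.6 and 49.1 FPKM), and *Rbp4*, *Il33* and *Il22* in treated *Irf1*-/- BMDCs (131, 67.8 and 3.50 FPKM).

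Untreated BMDCs were not part of the rule of that choice, and they divided the 5 genes. The genes were, however, chosen with earlier results of these data known, so the untreated values may not be independent of the choice. Without treatment, *Rbp4*, *Fbp1* and *Anxa8* were already higher in *Irf1*-/- than in wild-type BMDCs, *Il33* was not called, and *Il22* was listed at 0 in both and was not tested. Thus 3 of the 4 genes tested were called higher, where 1.26% of 11017 tested genes were. *Rbp4* was at 43.6 FPKM (interval 32.1 to 55.1) against 2.79 FPKM (1.83 to 3.75), a ratio of 15.6 and a log2 difference of 3.92. The ratio was 8.54 to 30.1 when taken between opposite ends of the intervals. *Fbp1* was at 46.6 FPKM (34.7 to 58.0) against 3.43 FPKM (2.37 to 4.49), a ratio of 13.6 with bounds of 7.72 and 24.5. These were the 2 largest log2 differences among the 139 genes called higher. *Anxa8* was at 49.1 FPKM (34 to 65.3) against 12.2 FPKM (8.78 to 15.4), a ratio of 4.04 with bounds of 2.21 and 7.44, and ranked 23. *Il33* was at 6.01 FPKM (4.53 to 7.49) against 4.58 FPKM (3.25 to 5.93). Its intervals overlapped, and the ratio of 1.31 could lie between 0.763 and 2.31. Across all genes, 64 were called higher both untreated and treated, which is 46.0% of the 139 and 21.8% of the 294.

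**Figure D3:**
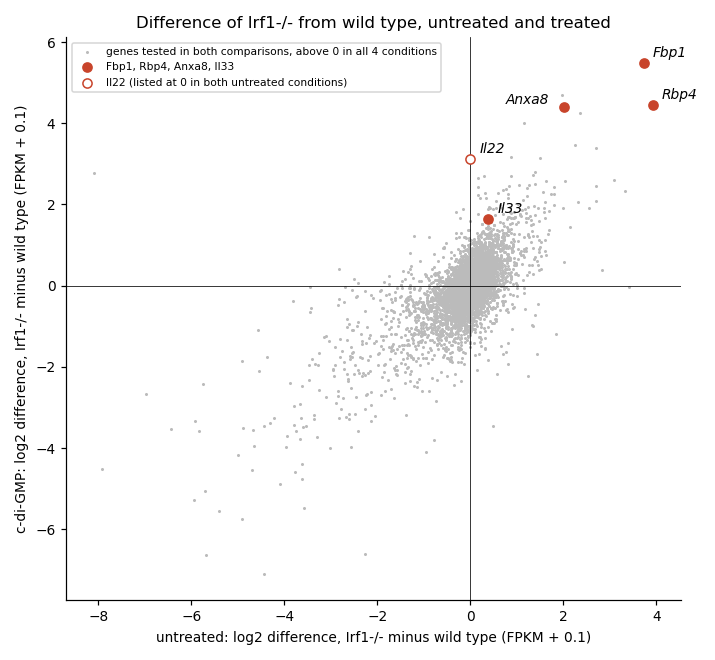
Log2 difference between *Irf1*-/- and wild-type BMDCs (FPKM + 0.1), untreated on the horizontal and with c-di-GMP on the vertical axis. Grey points are 10600 genes tested in both comparisons and above 0 in all 4 conditions. *Rbp4*, *Fbp1* and *Anxa8* lie at 3.92, 3.72 and 2.0 untreated and *Il33* at 0.39, while *Il22* (open circle) is drawn at 0 because it was listed at 0 in both untreated conditions.

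*Fbp1* fell with c-di-GMP in 2 genotypes, and its lower level in treated *Irf1*-/- BMDCs was not called. It fell from 3.43 to 0.524 FPKM in wild-type BMDCs, a log2 change of -2.50, and 9.96% of tested genes were called lower there. In *Irf1*-/- BMDCs it was at 46.6 FPKM untreated and 27.9 FPKM treated. That log2 change of -0.74 was not called, since the intervals of 34.7 to 58.0 and 20.9 to 35 FPKM overlapped. It fell from 5.34 to 2.45 FPKM in the BMDCs labelled *Irf3/7*-/-, where 7.68% of tested genes were lower. On a pseudocount of 1 FPKM that change was -0.88 and was not called. In *Tmem173*-/- BMDCs it was at 0.120 and 0.0577 FPKM, with intervals that reached 0. The 2 *Irf1*-/- conditions stood above all others, and their intervals did not touch the next, at 5.34 FPKM (3.79 to 6.86).

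Of 24 other genes of gluconeogenesis and glycolysis, 20 were tested in untreated BMDCs and 0 were called either way between *Irf1*-/- and wild type, where 4.78% of all tested genes were. In treated BMDCs 1 of the 20 was higher and 4 were lower, where 2.65% of all tested genes were called higher and 4.91% lower, and the median log2 difference was -0.28 against 0.02 over all tested genes. The higher gene was *Pfkfb4*, a regulator of phosphofructokinase, at 18.1 against 8.34 FPKM. The 4 lower genes belong to glycolysis. They were the glucose transporter *Slc2a1* (38.2 against 88.4 FPKM), the phosphofructokinase *Pfkl* (13.6 against 31.0 FPKM), the hexokinase *Hk1* (30.4 against 68.6 FPKM) and the regulator *Pfkfb3* (10.5 against 23.4 FPKM). *Pck1* and *G6pc*, which encode further gluconeogenic enzymes, stayed under 0.03 FPKM in all 8 conditions. The muscle paralog *Fbp2*, the nearest gene to *Fbp1* on chromosome 13, was listed at 0 in all 8. *Fbp1* itself lies at chr13:62864753-62888282 on the minus strand, and 0 of the 1478 windows of 35 bases (the read length) in its transcripts occurs in a transcript of another gene.

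*Rbp4* was raised by c-di-GMP in all genotypes with STING. It rose from 2.79 to 5.92 FPKM in wild type, by 1.06 on the log2 scale, where 10.5% of tested genes were called higher. With a pseudocount of 1 FPKM this change was 0.87 and was not called. It rose from 43.6 to 131 FPKM in *Irf1*-/- BMDCs (1.59 on the log2 scale, 9.67% called higher) and from 7.82 to 25.4 FPKM in the BMDCs labelled *Irf3/7*-/- (1.69, 10.2% called higher). Without STING it was at 0.293 and 0.453 FPKM, with overlapping intervals. The log2 differences between *Irf1*-/- and wild type, 3.92 untreated and 4.45 treated, were 0.53 apart, against 1.26 for *Il33*, 1.77 for *Fbp1* and 2.41 for *Anxa8*. The treated differences chose the genes, so a treated difference above the untreated one is partly built in. These gaps are descriptions and were not tested. *Rbp4* was also higher in untreated BMDCs labelled *Irf3/7*-/- than in wild type, at 7.82 FPKM (5.28 to 10.4) against 2.79 FPKM (1.83 to 3.75), where 1.17% of tested genes were called higher.

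Of 26 other genes of retinoid handling, 14 were tested in untreated BMDCs and 2 were higher in *Irf1*-/- (1.26% over all tested genes), with a median log2 difference of 0.39 against -0.0021 over all tested genes. They were *Dhrs9*, a retinol dehydrogenase, at 57.4 against 20.8 FPKM, and *Rarb*, a retinoic acid receptor, at 3.66 against 1.20 FPKM. In treated BMDCs 12 were tested, 2 were higher (2.65% over all) and 1 was lower (4.91%). *Dhrs9* (24.6 against 6.45 FPKM) and *Aldh1a2*, which makes retinoic acid in dendritic cells (581 against 256 FPKM), were higher there, and the retinol dehydrogenase *Rdh12* was lower (1.24 against 3.62 FPKM). *Stra6*, the cell surface receptor for RBP4, was at 0.879 FPKM or less in every condition. *Ttr*, whose product travels with RBP4 in blood, was at 0.135 FPKM or less.

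The gene next to *Rbp4* differed in the same direction. *Rbp4* lies at chr19:38116629-38125281 on the minus strand, and *Ffar4*, which encodes a receptor for long-chain fatty acids, lies on the plus strand at chr19:38097071-38114263, so that the 2 genes end toward each other. Their loci in the table are 2357 bases apart. *Ffar4* was at 5.70 and 6.61 FPKM in wild type, 8.79 and 7.30 FPKM in *Tmem173*-/-, 15.0 and 46.8 FPKM in *Irf1*-/-, and 8.97 and 10.1 FPKM in the BMDCs labelled *Irf3/7*-/-. It was called higher in *Irf1*-/- than in wild-type BMDCs untreated (log2 difference 1.38) and treated (2.80). Unlike *Rbp4*, it was not near 0 without STING. *Pde6c*, whose locus begins 7460 bases beyond the *Rbp4* start, was at 1.21 FPKM in treated *Irf1*-/- BMDCs and at 0.174 FPKM or less elsewhere. The next gene on either side, *Cep55* and *Fra10ac1*, was not called. Of 20 neighbours of the 5 genes, 2 on either side of each, 12 were tested in treated BMDCs, *Ffar4* and *Pde6c* were the 2 called higher, and *Ifng*, near *Il22*, was the 1 called lower, where 2.65% of all tested genes were higher and 4.91% lower. Untreated, 11 of the neighbours were tested, and *Ffar4* was called higher and *Ifng* lower. The libraries were stranded, and the study's methods describe a Seqmonk analysis set for strand-specific libraries. Whether the FPKM of the table were counted by strand was not stated there.

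**Figure D4:**
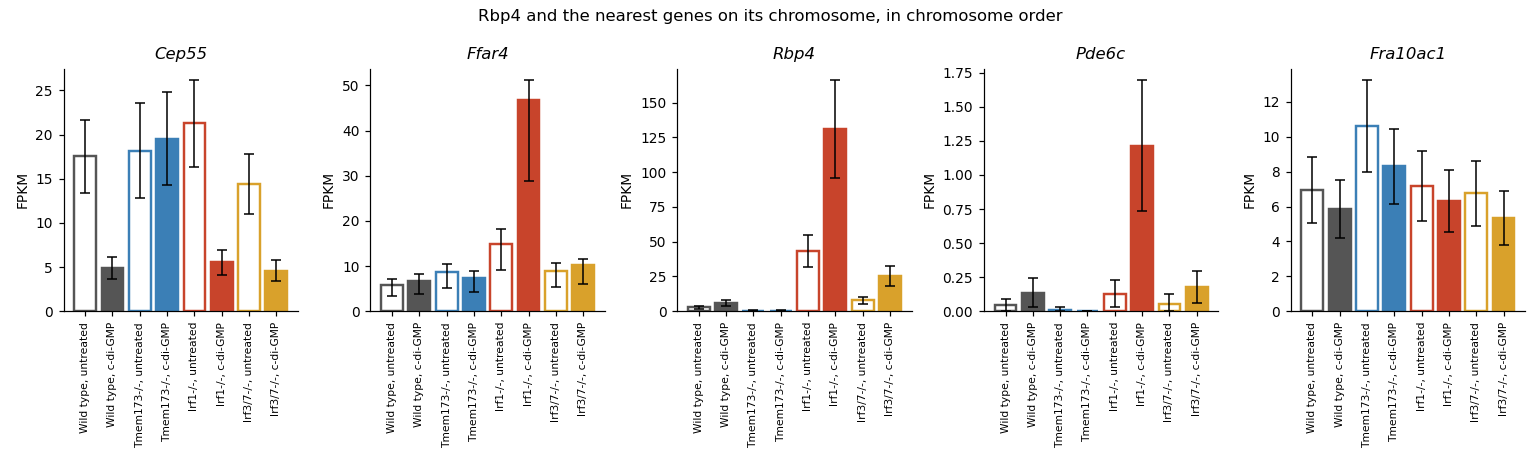
FPKM (vertical axis, from 0, a different scale in each panel) of *Rbp4* and the 2 nearest genes on either side, in chromosome order. Bars are the authors' value per condition and error bars the authors' interval. *Ffar4* and *Pde6c* were highest in treated *Irf1*-/- BMDCs, at 46.8 and 1.21 FPKM, as was *Rbp4* at 131 FPKM, while *Cep55* (5.56 FPKM) and *Fra10ac1* (6.31 FPKM) were not called there against wild type.

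Of the 5 genes, *Anxa8* was the most lowered by treatment in wild type. It fell from 12.2 to 0.854 FPKM, a log2 change of -3.68. It fell from 13.1 to 1.49 FPKM (-3.05) in the BMDCs labelled *Irf3/7*-/- and from 49.1 to 20.2 FPKM (-1.28) in *Irf1*-/- BMDCs, where 7.81% of tested genes were lower. It was at 8.93 and 6.95 FPKM in *Tmem173*-/- BMDCs, with overlapping intervals. Untreated levels in wild type, *Tmem173*-/- and the BMDCs labelled *Irf3/7*-/- had overlapping intervals (5.94 to 17.6 FPKM in all). Treated *Irf1*-/- BMDCs thus held 20.2 FPKM (14 to 27.0), whose interval overlapped that of untreated wild type (8.78 to 15.4).

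Of 13 other annexin genes and S100 partners, 11 were tested untreated and 0 were called either way between *Irf1*-/- and wild type (4.78% over all tested genes). In treated BMDCs 1 of 10 was higher (2.65% over all) and 0 were lower, with a median log2 difference of 0.59 against 0.02 over all tested genes. It was *Anxa1*, which encodes an annexin that restrains inflammation, at 713 against 289 FPKM. *Anxa2* was at 1729 against 894 FPKM and was not called. *Anxa8* lies at chr14:34085981-34100571 on the plus strand. The table gives it a locus merged with *A630023A22Rik* and *Antxrl*, whose own FPKM were 0.117 or less in every condition, and 0 of its 1879 windows of 35 bases is shared with another gene.

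*Il33* was induced by c-di-GMP. It rose from 4.58 to 21.6 FPKM in wild type, a ratio of 4.72 (bounds 2.85 and 8.12), and from 6.01 to 67.8 FPKM in *Irf1*-/- BMDCs, a ratio of 11.3 (bounds 7.00 and 18.4). The log2 changes were 2.22 and 3.47. The bounds of the 2 ratios overlapped, and the difference between them was not tested. By quantitative PCR after c-di-GMP, the study itself reported the other direction, with significantly less *Il33* mRNA in *Irf1*-/- BMDCs. The reason for this disagreement was not tested. It was at 5.06 and 5.72 FPKM in *Tmem173*-/- BMDCs. In the BMDCs labelled *Irf3/7*-/- it was at 15.9 FPKM (12.3 to 19.5) untreated, higher than in untreated wild type, and at 9.63 FPKM (7.35 to 11.9) treated. Those intervals did not overlap, but the ratio of 0.606 was within 2-fold and was not called. Treated cells of that label held less *Il33* than treated wild type, with a ratio of 0.446, where 2.69% of tested genes were lower. *Il33* lies at chr19:29925114-29960718 on the plus strand, and of its nearest neighbours *Ranbp6* was not called and *Trpd52l3*, listed at 0 in all 8 conditions, was not tested.

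The receptor gene of IL-33 fell with treatment in wild-type and *Irf1*-/- BMDCs, where *Il33* rose. *Il1rl1* was at 26.9 FPKM in untreated *Irf1*-/- against 6.55 FPKM in untreated wild-type BMDCs (log2 difference 2.02, called higher), and was at 2.36 and 1.55 FPKM after c-di-GMP. It was at 21.8 and 27.4 FPKM in *Tmem173*-/- BMDCs, and at 6.74 and 3.14 FPKM in those labelled *Irf3/7*-/-. Of 18 other genes of the IL-1 family and its receptors, 14 were tested untreated and 3 were higher in *Irf1*-/- (1.26% over all tested genes). All 3 encode receptors, *Il1rl1*, *Il18r1* (2.01 against 0.582 FPKM) and *Il1r1* (12.4 against 5.08 FPKM). In treated BMDCs 1 of 14 was higher (2.65% over all) and 3 were lower (4.91%), with a median log2 difference of -0.40. *Il1r1* was higher, at 3.26 against 0.925 FPKM. The cytokine genes *Il1b* (113 against 611 FPKM), *Il1f6* (0.476 against 2.37 FPKM), which encodes IL-36α, and *Il1a* (146 against 390 FPKM) were lower, in contrast with *Il33*. *Il1r1* was also called higher than treated wild type in treated *Tmem173*-/- BMDCs (2.20 FPKM) and in those labelled *Irf3/7*-/- (3.35 FPKM).

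**Figure D5:**
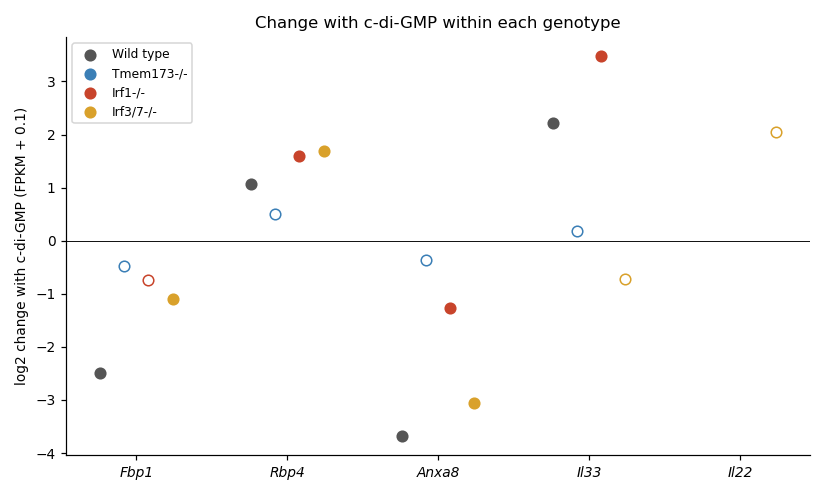
Log2 change with c-di-GMP (FPKM + 0.1, vertical axis) of each gene within each genotype, with filled circles for called changes and open circles for others. *Rbp4* changed by 1.06, 1.59 and 1.69 in wild type, *Irf1*-/- and the BMDCs labelled *Irf3/7*-/-, and *Il33* by 2.22, 3.47 and -0.72, while *Il22* is drawn only for the last, since it was listed at 0 in 3 untreated genotypes.

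*Il22* was the lowest of the 5. It was listed at 0 in untreated wild-type and *Irf1*-/- BMDCs and in both *Tmem173*-/- conditions, and was at 0.0222 FPKM in untreated BMDCs labelled *Irf3/7*-/-. On treatment, 3.50 FPKM (2.23 to 4.76) was measured in *Irf1*-/-, 0.408 FPKM (0.146 to 0.658) in the BMDCs labelled *Irf3/7*-/-, and 0.317 FPKM (0.110 to 0.512) in wild type. The last 2 intervals overlapped each other, and that of *Irf1*-/- lay above both. The study names *Il22* among the genes whose induction needed IRF3/7, whereas *Il22* in treated BMDCs labelled *Irf3/7*-/- was not below treated wild type here. The reason for this was not tested. It was called higher with c-di-GMP in *Irf1*-/- BMDCs, and no ratio is given against a value of 0. Since it reached 1 FPKM only in treated *Irf1*-/- BMDCs, it could not have been called lower there. Other comparisons of *Il22* within a genotype were not tested, since it did not reach 1 FPKM.

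*Il22* lies at chr10:118204942-118210047 on the plus strand. Of 1076 windows of 35 bases in its transcript, 539 (50.1%) also occur in the transcript of its near-copy *Iltifb*, so reads there cannot be assigned to either gene alone. *Iltifb* was listed at 0.0688 FPKM in treated *Irf1*-/- BMDCs and at 0 in the other 7 conditions. *Ifng*, the second gene of the table after *Il22* on chromosome 10 and a product of T and NK cells, differed the other way. It was at 25.5 FPKM in treated *Irf1*-/- BMDCs against 299 FPKM in wild type and 1155 FPKM in those labelled *Irf3/7*-/-.

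No marker of T, innate lymphoid or natural killer cells was called higher in treated *Irf1*-/- than in treated wild-type BMDCs. Of 8 tested T cell markers 0 were higher and 4 lower, and of 9 tested markers of innate lymphoid and natural killer cells 0 were higher and 7 lower, where 2.65% of all tested genes were higher and 4.91% lower. In treated *Irf1*-/- BMDCs *Cd3d*, *Cd3e* and *Cd3g*, the chains that define T cells, were at 0.645, 0.479 and 0.903 FPKM, against 7.18, 5.41 and 10.7 FPKM in treated wild type, and were called lower. *Nkg7* was at 3.43 against 38.5 FPKM. *Il17a*, a cytokine gene of some of these lymphocytes, was listed at 0 in all 8 conditions. *Il7r* was at 56.4 against 48.8 FPKM and *Thy1* at 47.2 against 40.5 FPKM, and neither was called. Within *Irf1*-/- BMDCs, c-di-GMP raised 1 of 5 tested T cell markers, the kinase *Lck* (from 1.26 to 6.16 FPKM), and lowered 0. Of 7 tested markers of innate lymphoid and natural killer cells, *Il7r* rose (from 20.4 FPKM) and *Eomes* fell (from 1.29 to 0.586 FPKM). Over all tested genes, 9.67% rose and 7.81% fell there.

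Of 32 other genes of the IL-10 family, of IL-22 receptors and of factors known to induce *Il22*, 16 were tested untreated. There 2 were lower in *Irf1*-/- BMDCs, *Il12rb1* (0.0886 against 9.62 FPKM), a receptor chain for IL-12 and IL-23, and *Ahrr* (0.770 against 2.38 FPKM), the repressor of the aryl hydrocarbon receptor, where 3.52% of all tested genes were lower. In treated BMDCs 20 were tested, 1 was higher (2.65% over all) and 2 were lower (4.91%), with a median log2 difference of -0.13. *Cyp1b1*, a target of the aryl hydrocarbon receptor, was at 17.4 against 8.62 FPKM, a log2 difference of 1.01 that just passed the threshold. Other genes linked to that receptor were not called: *Tiparp* (34.3 against 39.4 FPKM), *Ahrr* (2.63 against 3.21 FPKM) and *Ahr* itself (8.84 against 6.46 FPKM). *Cyp1a1* was at 0.0201 FPKM or less in all 8 conditions. *Il12rb1* (0.144 against 24.3 FPKM) and *Il12b*, a subunit of IL-12 and IL-23 (49.9 against 148 FPKM), were lower. *Il23a* was at 10.9 against 7.81 FPKM and *Il6* at 228 against 339 FPKM, and neither was called. With c-di-GMP, 12 of 20 genes of the list rose in wild type and 14 of 19 in *Irf1*-/- BMDCs, where the backgrounds were 10.5% and 9.67%. *Il22ra1* and the soluble antagonist gene *Il22ra2* stayed at 0.0291 FPKM or less, and the shared chain *Il10rb* was at 23.2 to 60.9 FPKM.

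Without the wild-type condition, treated *Irf1*-/- BMDCs could be set against treated BMDCs labelled *Irf3/7*-/-. All 5 genes were called higher in *Irf1*-/-, where 3.22% of 11235 tested genes were, although the *Irf1*-/- values are those that chose the genes. *Il22* reached 1 FPKM only in treated *Irf1*-/- BMDCs, so it was tested through that condition alone and could only be called higher. The ratios were 13.6 for *Anxa8*, 11.4 for *Fbp1*, 8.58 for *Il22*, 7.04 for *Il33* and 5.16 for *Rbp4*. Against treated wild type, the treated BMDCs labelled *Irf3/7*-/- were higher in *Rbp4* (ratio 4.29) and *Fbp1* (4.68), where 4.61% of tested genes were called higher. Their *Anxa8* was at 1.49 against 0.854 FPKM, with overlapping intervals. These comparisons share the treated wild-type condition with the one that chose the genes.

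Without STING, no change with c-di-GMP was called. In *Tmem173*-/- BMDCs 2 of the 5 genes could be tested for a change with c-di-GMP and neither was called, where 6 of 10867 tested genes (0.0552%) were called in either direction. Against untreated wild type, *Fbp1* and *Rbp4* were lower in untreated *Tmem173*-/- BMDCs, with ratios of 0.0351 and 0.105, where 5.95% of tested genes were lower. Both genes were thus below wild type in untreated *Tmem173*-/- and above it in untreated *Irf1*-/- BMDCs, and the reason was not tested. *Irf1* itself was at 24.1 FPKM in the former and 25.9 FPKM in the latter. The second value is a whole-gene FPKM of the targeted gene, so the 2 are not alike. *Anxa8* and *Il33* in untreated *Tmem173*-/- BMDCs had intervals that overlapped those of wild type. In treated *Tmem173*-/- against treated wild-type BMDCs, 12.9% of tested genes were higher and 13.5% were lower. There *Anxa8* was higher (ratio 8.13), and *Rbp4* (0.0765) and *Il33* (0.265) were lower. These ratios share the treated wild-type condition with the comparison that chose the genes, so they are given as a description.

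The 5 genes fell into patterns over the 8 conditions. By Pearson correlation of log2(FPKM + 0.1), *Il33* with *Il22* (r = 0.89) and *Fbp1* with *Rbp4* (r = 0.89) were the pairs most alike, and *Anxa8* with *Il22* the least (r = -0.18). The 8 values share genotypes, and the correlations are descriptions. Among 7382 genes that reached 10 FPKM, those most like *Fbp1* were *Vcp* (r = 0.97), *Aqp3* (0.97) and *Dusp23* (0.96). *Aqp3*, which encodes a channel for water and glycerol, was at 32.3 and 36.6 FPKM in *Irf1*-/- and at 11.4 and 4.03 FPKM in wild-type BMDCs. The genes most like *Rbp4* were *Plekho2* (0.97), *Nipa1* (0.95) and *Irf4* (0.95). *Irf4*, a factor of dendritic cell differentiation, was at 345 FPKM in treated *Irf1*-/- and 70.4 to 174 FPKM in the other conditions. The genes most like *Anxa8* were *Sept9* (0.99), *Plau* (0.97) and *Ilk* (0.96), and *Plau*, the urokinase gene, was at 144 against 38.5 FPKM in treated *Irf1*-/- and wild-type BMDCs. For *Il33* they were *Ric8* (0.94), *Timp1* (0.94) and *Ift43* (0.93). *Timp1*, an inhibitor of matrix metalloproteinases, rose from 96.6 to 528 FPKM in *Irf1*-/- and from 71.4 to 277 FPKM in wild-type BMDCs. For *Il22* they were *Lasp1* (0.98), *Crot* (0.98) and *Rabif* (0.98). These names depend on the measure: of the 3 named for each gene, a Spearman correlation kept 1 for *Fbp1* and *Rbp4* and 0 for the others. Likeness in pattern did not mean likeness in size. The highest FPKM of *Vcp*, *Plekho2*, *Ilk*, *Lasp1* and *Rabif* was 1.27 to 1.49 times the lowest.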

How the data were processed

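RNA-seq of 16 BMDC samples, 2 for each of 8 conditions, was analysed from 1 table. The authors deposited FPKM per gene with the lower and upper bound of its interval, as made by Cuffdiff (version 1.06 in the submitters' processing notes, another version in the paper) from 35-bp paired-end reads of stranded mRNA libraries, with the samples of a condition combined. The sources used here name no aligner or annotation. The methods give an opposing-strand setting for Seqmonk and none for Cuffdiff. The notes name mm9, but 21454 of the 21681 gene loci that could be matched by name overlapped the same gene in GENCODE M21 (GRCm38), so GRCm38 positions are given. A further 3 columns of values, for another knockout, were not used. Columns were matched to conditions by name. Of the 2 *Tmem173*-/- columns, the one with a suffix, TM173GDP, was taken as treated, and its ratio to treated wild type was that of the study's supplementary list.

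A gene was tested with a status of OK and at least 1 FPKM in either condition, and called when log2(FPKM + 0.1) differed by more than 2-fold and the authors' intervals did not overlap. There were 11 comparisons. Values per replicate were not used here and FPKM gives no depth, so the interval is the only measure of precision. Named genes were the 5 genes, the targeted genes, the called genes of fixed lists (at most 4 each way), 5 receptor genes, the 3 genes most like each of the 5, and their 2 neighbours on either side. Uncalled list genes, and marker genes, that the text also names were chosen after their values were seen. The members and lists were chosen with earlier results of these data known. Calls were tested on simulated data. As alternatives, pseudocounts of 0.01 and 1 FPKM, a minimum of 0 or 5 FPKM, a threshold above 4-fold and median centring were tried. Promoters came from RefSeq (GRCm38.p6). Scripts ran in python 3.11.15 with pandas 2.3.3, numpy 2.4.6 and matplotlib 3.10.9.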

Additional observations from a re-analysis of the deposited data

Results flagged for a closer look

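*Il33* moved in opposite directions with c-di-GMP in different genotypes, which is why it is listed here. Its log2 change was 2.22 in wild-type and 3.47 in *Irf1*-/- BMDCs and -0.72 in the BMDCs labelled *Irf3/7*-/-, with the authors' intervals of treated and untreated cells apart in all 3. The last change was under 2-fold and was not called. The differences between these changes were 2.93 and 4.19 on the log2 scale, and they were not tested, since each condition has 1 combined value.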

How the results depend on the processing

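No paired analysis was possible because the table used here gives 1 combined value per condition, and for the same reason no replicate was left out. Of 264 calls of the 5 genes under an alternative (44 comparisons of a gene under 6 alternatives), 245 stayed on their side of the threshold, 19 were lost and 0 reversed. Of the 19, 10 were lost above 4-fold, 7 with a minimum of 5 FPKM (3 of *Il22*, the fall of *Fbp1* in wild type, *Fbp1* in treated *Irf3/7*-/- against wild type, and *Fbp1* and *Rbp4* in untreated *Tmem173*-/- against wild type, all then untested), and 2 with a pseudocount of 1 FPKM: the rise of *Rbp4* in wild type (0.87) and the fall of *Fbp1* in the BMDCs labelled *Irf3/7*-/- (-0.88). The calls of *Fbp1*, *Rbp4* and *Anxa8* in untreated *Irf1*-/- against wild type held under all 6.

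Counts of called genes moved as follows. Above 4-fold, they were 592 in place of 2291 with c-di-GMP in wild type, 0 in place of 6 in *Tmem173*-/-, 589 in place of 1952 in *Irf1*-/- and 500 in place of 2015 in the BMDCs labelled *Irf3/7*-/-. Against treated wild type they were 232 in place of 838 (*Irf1*-/-), 1174 in place of 2980 (*Tmem173*-/-) and 207 in place of 818 (*Irf3/7*-/-), against untreated wild type 176 in place of 527, 422 in place of 1221 and 36 in place of 224, and between the treated *Irf1*-/- and *Irf3/7*-/- conditions 381 in place of 1106. With a minimum of 5 FPKM, 538, 323, 723, 460, 800 and 112 genes were called for treated and untreated *Irf1*-/- against wild type, treated *Irf1*-/- against *Irf3/7*-/-, treated *Irf3/7*-/- against wild type, and untreated *Tmem173*-/- and *Irf3/7*-/- against wild type. A pseudocount of 1 FPKM gave 536 and 118 for treated and untreated *Irf3/7*-/- against wild type. In *Tmem173*-/- with c-di-GMP it gave 1, a pseudocount of 0.01 FPKM gave 11 and no filter gave 10. By construction, these settings change the genes or folds that can pass. Median centring moved no count by over 1.5 times. Of the 3 genes named as most like each of the 5, a Spearman correlation kept 1 for *Fbp1* and *Rbp4* and 0 for *Anxa8*, *Il33* and *Il22*, and a pseudocount of 1 FPKM kept 1 for *Fbp1* and *Il22*.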

Other observations

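BMDCs had been grown with IL-4, and genes that IL-4 induces in macrophages and dendritic cells were compared between *Irf1*-/- and wild-type BMDCs. Of 26 such genes 25 were tested untreated, and 4 were higher (1.26% over all tested genes) and 0 lower (3.52%), with a median log2 difference of 0.12 against -0.0021 over all tested genes. *Retnla*, a secreted product of alternatively activated macrophages, was at 3267 against 500 FPKM and stayed higher with c-di-GMP (913 against 166 FPKM). *Cd209a* (1.30 against 0.182 FPKM) and the eosinophil-type ribonucleases *Ear11* (1082 against 340 FPKM) and *Ear2* (846 against 382 FPKM) were the other 3. In treated BMDCs 4 of 24 were higher in *Irf1*-/- (2.65% over all) and 2 were lower (4.91%), with *Mrc1* at 2.24 against 0.721 FPKM and *Klf4* at 1.81 against 20.8 FPKM. *Ear11* and *Egr2* (75.3 against 36.2 FPKM) were the other 2 that were higher, and *Tgm2* (124 against 458 FPKM) was the other that was lower. *Retnla* was at 3.84 and 2.01 FPKM in *Tmem173*-/- BMDCs, as *Rbp4* and *Fbp1* were near 0 there.

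Among 8 cytokine genes of type 2 immunity, *Il9* was, like *Il22*, highest in treated *Irf1*-/- BMDCs. It was listed at 0 in all 4 untreated genotypes and was at 3.22 FPKM in treated *Irf1*-/-, 0.845 FPKM in treated wild-type and 0.0587 FPKM in treated BMDCs labelled *Irf3/7*-/-. *Csf2* was lower in *Irf1*-/- than in wild type, at 1.26 against 4.93 FPKM treated and 1.13 against 7.92 FPKM untreated. *Il4* was at 1.58 against 3.30 FPKM in treated BMDCs and was not called.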
